A study of Rattus norvegicus with 4 samples.

Results

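Ion channel genes were examined in the soleus, a slow postural muscle of the hindlimb, of male Wistar rats after loss of the motor nerve. The set holds every probe set annotated to exactly 1 gene whose symbol starts with Kcn, Scn and a digit, Cacn, Clcn or Hcn, that is, the subunits of potassium, sodium, calcium, chloride and pacemaker channels. Cacna1s, the pore of the skeletal muscle calcium channel, was set apart and is given among the partners of the channels. The rule found 192 of 31042 probe sets, which stand for 120 of 14217 genes in 13 classes of channel.

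Rats were 10 weeks old at the start and ate for 24 days either a control diet, a modified AIN-93G diet with corn oil in place of soybean oil, or an AIN-93G diet with 0.05% genistein (0.5 g per kg), a soy isoflavone. The characteristics field gives their age as 14 weeks. On day 14 the sciatic nerve of the left leg was cut and the right leg had sham surgery, and the soleus was taken 10 days later, so both legs of a diet come from the same rats. RNA of 8 rats was pooled into 1 array for each of the 4 groups, sham and denervated muscle of each diet. There are no replicates, so no value below has an error, no test was run, and folds describe these 4 pools. Pools average 8 animals but hide the spread between them.

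The treatment field of 2 samples goes against their titles, which were used for the groups. Chrna1, the muscle acetylcholine receptor alpha subunit that rises after nerve loss, read 1860 and 1589 units in the control and genistein sham pools and 20550 and 16186 in the denervated pools, which goes with the titles; nothing in the data checked the diet. The 5 fibre markers read far above background on every array and were also lower in denervated muscle, with summed signals of 212678 and 188661 units in the control and genistein sham pools and 146976 and 120890 in the denervated pools (median log2 ratios -0.58 and -0.69); their part in the lower channel signals was not tested. The median signal of all probe sets was 121 to 133 units per array. Actin probe sets at the 3′ end of the mRNA were compared with those at the 5′ end to gauge RNA quality. Their ratios were 2.08 and 2.32 in the control and genistein sham pools and 3.79 and 2.76 in the denervated pools. The same ratios for GAPDH went the other way, 1.24 and 1.20 in the sham pools and 1.14 and 1.13 in the denervated pools. The part of RNA quality in the channel results was not tested.

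A muscle fibre fires when sodium channels open at the endplate and carry the action potential along the surface and down the transverse tubules. There a voltage-sensing calcium channel triggers calcium release from the sarcoplasmic reticulum, and potassium and chloride channels repolarise and steady the membrane. Fibres that lose their nerve are known to become more excitable, to fibrillate, to lower their chloride conductance and to gain apamin-sensitive potassium channels of the small-conductance calcium-activated (SK) type.

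Most channel genes gave little signal in this muscle. Background was set at the 40th percentile of all non-control signals on the 4 arrays, 78.9 units, and lower signals were raised to that floor before log2 was taken. Above it lay 33.3% of the channel probe sets in control sham, 30.7% in control denervated, 37.0% in genistein sham and 32.8% in genistein denervated muscle, against 58.5% to 60.8% of all probe sets. With each gene represented by its brightest probe set, 65 of the 120 channel genes were above the floor on at least 1 array, 30 on all 4 and 55 on none. Of all genes, 78.4% were above it on at least 1 array, 65.9% on all 4 and 21.6% on none. The 3 genes just above the floor were Cacna1d, Kcnab3 and Kcnj15, with highest signals of 79.8, 82.8 and 84.2 units, and the 3 just below it were Cacna1b, Kcnd3 and Scn4a, with 77.0, 75.1 and 73.5 units. A second Cacna1b probe set, dimmer on average, reached 81.0 units in genistein sham muscle. A probe set below the floor gives no level here, and signals of different probe sets cannot be ranked as amounts of mRNA. Of 21 genes set for description whatever their values, 17 had a probe set named to them, and the other 4 were not analysed here.

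On the control diet 5 channel genes passed 2-fold upward after denervation (5.04% of all measured genes did) and 7 passed it downward (7.63% of all genes), out of 57 above the floor in that comparison. On genistein the counts were 5 higher (4.96% of all genes) and 6 lower (6.57%) out of 62. The 5 higher genes were the same in both diets, Kcnq5, Kcnn3, Kcna2, Kcnc4 and Cacnb1 (3.59% of all genes were higher in both). The 4 lower in both were Scn4b, Kcns3, Kcnk2 and Scn1a (4.93% of all genes), and 0 channel genes passed 2-fold in opposite directions. The members' shares were 8.77% higher and 12.3% lower on the control diet, 8.06% and 9.68% on genistein, and 9.26% and 7.41% in both. These shares and those of all genes are over genes that passed the floor in 1 pool or the other of a comparison, a filter that favours differences. The 14 channel genes past 2-fold in at least 1 diet are few.

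The measured channel genes had a median log2 ratio of -0.23 (control diet) and -0.16 (genistein diet), against 0.00 and 0.02 for all genes, and its sign depends on scaling. The control diet median was 0.01 under median scaling and 0.12 under scaling to the spike-in controls, and the genistein median 0.26 under the latter. Higher genes made up 41.7% and 45.5% of the channel genes past 2-fold on the control and genistein diets, and 63.6% and 72.7% under spike-in scaling, which moves the median of all genes to 0.37 and 0.48; channel ratios closer to 0 than that can change sign with it. Probe sets of the same gene differed in their denervation log2 ratio with an SD of 0.36 (control diet, 2428 genes) and 0.37 (genistein diet, 2506 genes) about the gene's mean, a scatter that does not include differences between pools. In whole muscle, fewer cells of a type and less RNA per cell cannot be told apart.

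**Figure D1:**
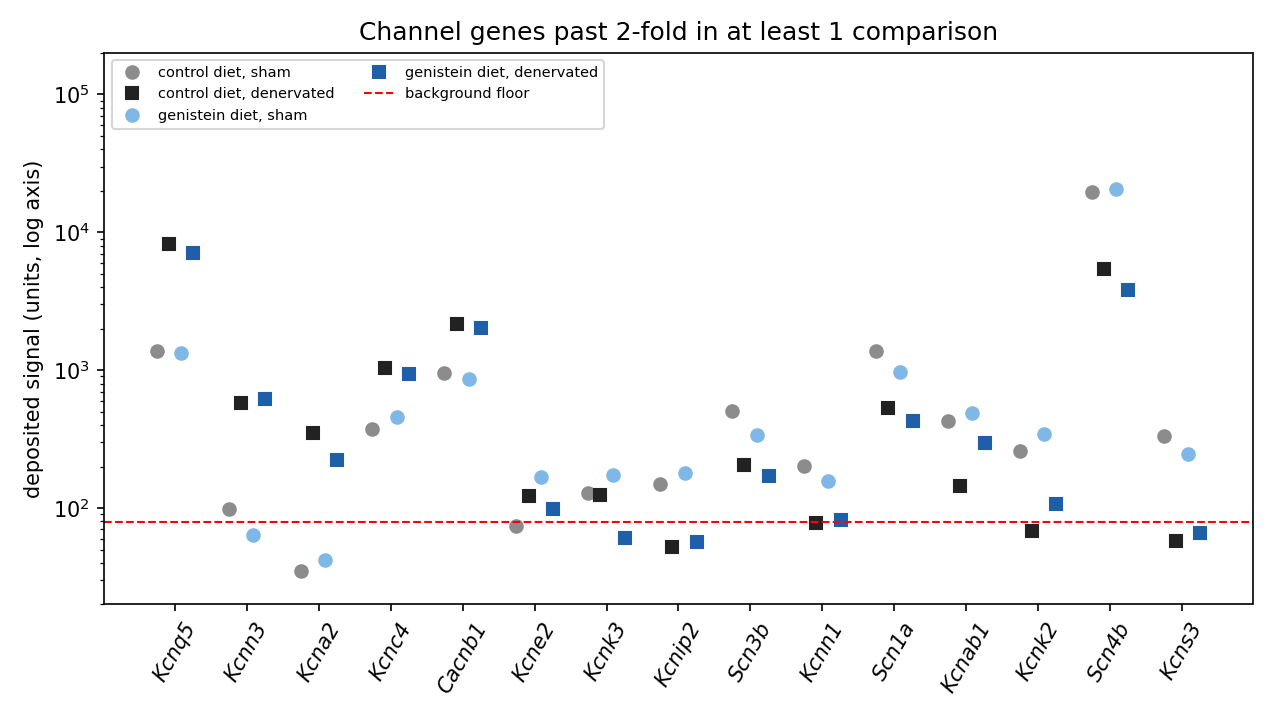
Deposited signal (units, log axis) on each of the 4 arrays for the 15 channel genes past 2-fold in at least 1 comparison, ordered by the denervation ratio on the control diet, with the background floor as a dashed line. Circles are sham and squares denervated pools, 1 array each; from Kcnq5 to Cacnb1 both squares lie above both circles, and from Kcnip2 to Kcns3 both lie below them.

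Among the sodium channel subunits, 3 of 7 measured on the control diet and 2 of 8 on genistein were past 2-fold lower in denervated muscle. Of all genes, 7.63% were lower on the control diet and 6.57% on genistein. Past 2-fold higher were 0 sodium channel subunits, where 5.04% and 4.96% of all genes were, so counts this small show little. Scn4b, the beta4 subunit that is disulphide-linked to the pore and shapes resurgent current, read 19663 units in control sham, 5415 in control denervated, 20464 in genistein sham and 3844 in genistein denervated muscle. Both denervated pools were far below both sham pools, by 3.63-fold (log2 ratio -1.86) for the control diet and 5.32-fold (-2.41) for genistein. Its ratios lay between -1.86 and -1.47 on the control diet and between -2.44 and -1.94 on genistein in the 6 alternative processings.

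Scn1a, the pore of the channel Nav1.1 best known from neurons, read 1376, 533, 973 and 430 units in the order control sham, control denervated, genistein sham and genistein denervated, the order used from here on. It was 2.58-fold and 2.26-fold lower after denervation on the control and genistein diets, and its ratios were -0.98 and -0.70, short of 2-fold, under spike-in scaling. Scn3b, the beta3 subunit, read 503, 205, 338 and 172 units, with a control diet ratio of -1.29 and a genistein ratio of -0.98, the latter just short of 2-fold. Its other probe set, at 263, 92.8, 229 and 91.9 units, gave -1.50 and -1.32. The denervated pools were thus below the sham pools for both Scn3b probe sets.

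Scn3a, the pore of Nav1.3, had ratios of -0.79 and -0.63. Scn7a, which encodes the salt-sensing channel Nax found in glia, read 271, 146, 331 and 179 units, with ratios of -0.89 in both diets. Of 7 Schwann cell and nerve markers on the array, 5 were above the floor on some array, and Sox10 and Nefl were below it throughout. The summed signals were 3550, 3711, 3565 and 4805 units in the same order. Most of each sum was Pmp22 (ratios 0.02 and 0.33), and the other markers did not move alike. Nefm had 1.31 and a bound of 1.83, Mbp 0.48 and a bound of 1.09. S100b had -0.24 and 0.57, Prx -0.75 and a bound of 0.17. The part of these cells in the Scn7a signal was not tested. Scn10a, Scn11a and Scn2b, best known from neurons, stayed within 106 units on every array. Scn4a, which encodes Nav1.4, the principal sodium channel of adult muscle, was below the floor on all 4 arrays on its only probe set (19.6 to 73.5 units), so these arrays give no level for it.

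In the calcium channel complex of the transverse tubule, only Cacnb1 passed 2-fold. Cacnb1, the intracellular subunit that the skeletal complex needs to reach the tubule, read 948, 2168, 865 and 2022 units. Both denervated pools were above both sham pools, by 2.29-fold (1.19) for the control diet and 2.34-fold (1.23) for genistein. Its second probe set gave 1.46 and 1.45, with the control sham signal of 24.5 units below the floor. The gene passed 2-fold in both diets under all 6 alternatives.

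The other subunits of that complex had small ratios. Cacna2d1, the extracellular alpha2delta subunit, read 4647, 4877, 4849 and 4208 units, with ratios of 0.07 and -0.20. Cacng1, the skeletal gamma subunit, read 4782, 5412, 4594 and 4564 units, with ratios of 0.18 and -0.01. Cacna1s, the pore they attach to, read 2973, 3903, 2903 and 3137 units (0.39 and 0.11). Sham and denervated pools overlapped for Cacna2d1 and Cacng1, while both denervated pools of Cacna1s read above its sham pools by small margins.

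Of the other calcium channel pores, 4 of 9 genes were above the floor on some array and 0 of the 3 measured on the control diet and 0 of the 4 on genistein passed 2-fold after denervation, where 12.7% and 11.5% of all genes did, so counts this small show little. Cacna1c, the pore of the cardiac and smooth muscle channel Cav1.2, read 91.9, 97.9, 133 and 123 units, close to the floor. Cacna1h, a low-voltage-activated T-type channel, read 123, 82.7, 125 and 47.6 units, with a ratio of -0.58 and a bound of -0.66, while its second probe set, at 90.7, 28.7, 62.2 and 82.2 units, gave bounds of -0.20 and 0.06. Cacnb2, the main cardiac beta subunit, had ratios of 0.55 and 0.21, and 5 of 8 genes of the gamma family were below the floor on all arrays.

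Of the 31 voltage-gated potassium pore genes, 9 were measured in the control diet comparison and 12 in the genistein comparison. In both diets 3 of them passed 2-fold upward, where 3.59% of all genes did, and 1 downward, where 4.93% did. These counts are small. Each of the 3 higher genes missed 2-fold in at least 1 diet when the mean over its probe sets was used. Kcnq5, the pore of the M-type channel Kv7.5, which opens slowly near the resting potential and damps repetitive firing, read 1388, 8179, 1334 and 7109 units. The sham pools of both diets read alike and both denervated pools far above them, a 5.89-fold difference (2.56) for the control diet and 5.33-fold (2.41) for genistein. The probe sets did not show this alike. A second one, at 156, 187, 19.9 and 107 units, gave 0.26 and 0.44, and the other was below the floor throughout, so the mean over its probe sets gave 0.94 and 0.95.

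Kcnc4, the pore of the fast-inactivating channel Kv3.4, which is found in skeletal muscle, read 375, 1044, 458 and 939 units. It was 2.79-fold and 2.05-fold higher, the latter just inside 2-fold, and the genistein ratio was 0.96, short of 2-fold, under quantile normalization. The second Kcnc4 probe set was below the floor on all arrays, so the mean over its probe sets gave 0.74 and 0.52, short of 2-fold in both diets. Kcna2, the delayed rectifier Kv1.2, read 35.0, 349, 42.2 and 222 units on its brightest probe set. Its sham signals were under the floor and its denervated signals over it, so denervated muscle was at least 4.42-fold higher for the control diet and at least 2.82-fold higher for genistein. Its second probe set read 86.0, 52.2, 129 and 103 units and went the other way, with ratios of -0.12 (a bound) and -0.33. The direction for Kcna2 therefore rests on 1 of its 2 probe sets. With the floor at the 60th percentile its bounds were 0.68 and 0.03, short of 2-fold.

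Kcns3, a subunit (Kv9.3) that forms no channel of its own and modifies the delayed rectifiers of the Kv2 group, read 333, 57.2, 247 and 66.3 units. Both denervated pools were below the floor, so denervated muscle was at least 4.22-fold lower for the control diet and at least 3.13-fold lower for genistein. With the floor at the 60th percentile Kcns3 missed 2-fold, with bounds of -0.61 and -0.18. Kcnq1, the pore of the slow delayed rectifier, read 156, 9.1, 157 and 42.3 units, and its bounds of -0.98 and -0.99 stop just short of 2-fold because the sham signals were near the floor. Kcnh2, the rapid delayed rectifier hERG, had ratios of -0.85 (a bound) and -0.66, and its relative Kcnh3 -0.81 and -0.69. Kcna5, the delayed rectifier Kv1.5, read 119, 77.2, 141 and 104 units, with a bound of -0.59 and a ratio of -0.45. Kcnc1, the Kv3.1 pore, was below the floor on every array (22.4 to 39.4 units), as were 18 other genes of this class of 31.

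**Figure D2:**
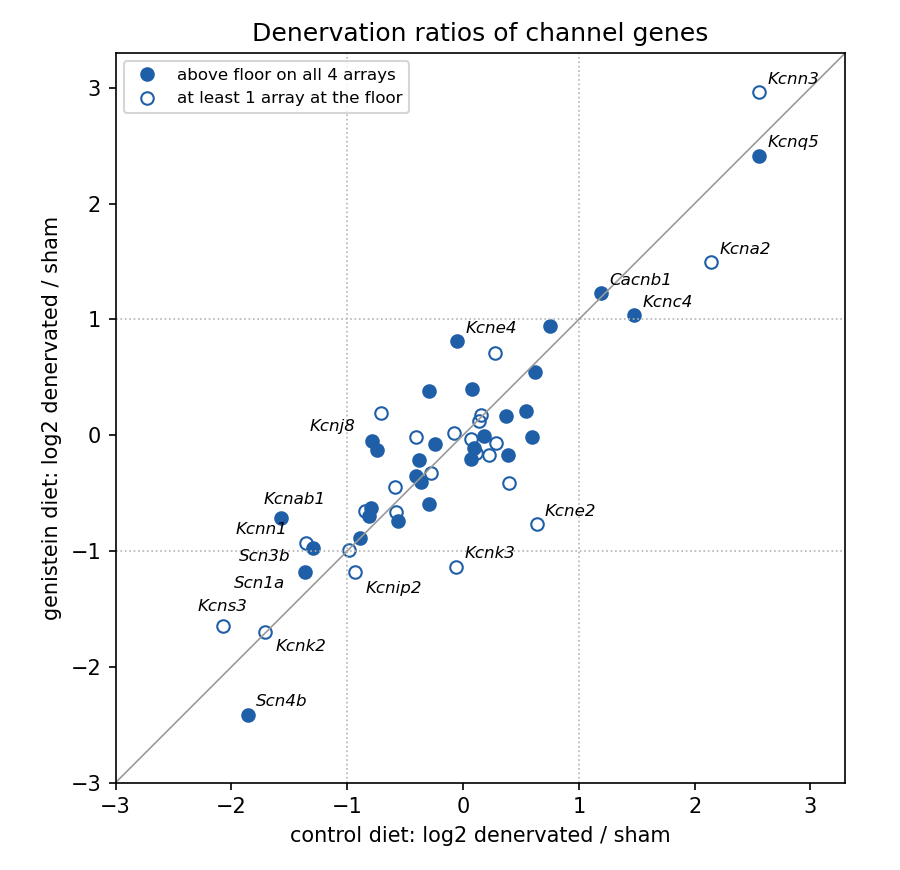
Log2 ratio of denervated over sham signal on the control diet (x axis) against the genistein diet (y axis) for the 54 channel genes above the floor on at least 1 array of each comparison, with dotted lines at 2-fold and the diagonal in grey. Open circles have at least 1 array at the floor; Kcnq5 and Kcnn3 lie far up the diagonal and Scn4b, Kcns3 and Kcnk2 far down it, while Kcne2 and Kcnk3 lie away from it.

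Accessory subunits of the voltage-gated potassium channels mostly had weak signals. Kcnab1, the beta1 subunit that speeds inactivation of Kv1 channels, read 427, 143, 491 and 299 units. It was 2.98-fold lower (-1.57) after denervation on the control diet and 1.64-fold lower (-0.72) on genistein, and the dimmer probe set gave -0.47 and 0.01. Kcnip2, a calcium-binding partner of Kv4 channels, read 150, 51.8, 179 and 56.4 units. Both denervated pools were below the floor, which bounds its ratios at -0.93 and -1.18. Kcne4, an inhibitory single-span subunit, read 141, 136, 136 and 238 units and stood out in the genistein denervated pool alone.

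The calcium-activated potassium channels held a pair of SK genes with opposite ratios. Kcnn3, the SK3 pore through which apamin-sensitive current flows, read 99.2, 583, 63.4 and 614 units on its only probe set. Its denervated pools were alike and well above the sham pools, 5.87-fold (2.55) for the control diet and at least 7.78-fold (2.96) for genistein, where the sham pool was below the floor. Kcnn1, the SK1 pore, read 202, 77.9, 156 and 81.8 units, at least 2.56-fold lower for the control diet and 1.90-fold lower (-0.93) for genistein. The denervated signals of Kcnn1 lay at the floor. Kcnma1, the large-conductance BK pore, which opens with calcium and voltage together, read 4707, 4976, 3793 and 5012 units, with ratios of 0.08 and 0.40. A dimmer Kcnma1 probe set gave -0.16 and -0.64, so its direction on genistein was not settled. Its beta subunits Kcnmb1 and Kcnmb4 did not exceed 105 units.

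Tandem-pore leak channels help to set the resting potential. Kcnk2, the stretch- and lipid-sensitive leak channel TREK-1, read 258, 68.6, 345 and 106 units. Both denervated pools were below both sham pools, at least 3.27-fold for the control diet and 3.24-fold (-1.70) for genistein. The second Kcnk2 probe set was below the floor on all arrays, and with the mean of probe sets the gene missed 2-fold. It also missed 2-fold with the floor at the 60th percentile, with bounds of -0.25 and -0.66. Kcnk3, the acid-sensitive leak channel TASK-1, read 129, 124, 173 and 60.8 units. Only its genistein denervated pool was below the floor, with a control diet ratio of -0.06 and a genistein bound of -1.14, and its dimmer probe set gave 0.15 and no measurement on genistein. Kcnk6 had ratios of -0.40 and -0.35, and 7 of 11 genes of the class were below the floor on all arrays.

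No inward rectifier passed 2-fold after denervation (0 of 7 measured on the control diet and 0 of 8 on genistein, where 12.7% and 11.5% of all genes passed either way). Kcnj11, the Kir6.2 pore of the ATP-sensitive channel that couples the membrane to the energy state of the fibre, read 3436, 2323, 3007 and 1795 units, with ratios of -0.56 and -0.74. Its 2 other probe sets gave 0.09 and -0.48 for the control diet and -0.19 and -0.78 for genistein. Kcnj12, the classical inward rectifier Kir2.2, read 270, 455, 311 and 598 units, with ratios of 0.75 and 0.95, just outside 2-fold on genistein. Kcnj2, its close relative Kir2.1, was below the floor on all arrays (14.7 to 59.0 units). Kcnj3, a G-protein-gated rectifier, read 192, 115, 126 and 115 units.

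Kcnj8, the Kir6.1 pore of vascular ATP-sensitive channels, read 237, 137, 251 and 243 units, low in the control denervated pool alone. Of 7 smooth muscle and pericyte markers 6 were above the floor, and their summed signals were 2724, 1682, 2786 and 2192 units in the same order, with Cnn1 below the floor throughout. The 6 endothelial markers on the array summed to 3927, 1933, 3980 and 2834 units. Both sums were lowest in the same pool as Kcnj8, and their part in its values was not tested.

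Chloride and pacemaker channel genes had small ratios. Clcn1, the main resting chloride conductance of muscle, read 85.3, 99.5, 88.8 and 61.0 units, at the floor, so its probe set shows no usable difference. Clcn3, an endosomal chloride-proton exchanger, read 2207, 1691, 2084 and 1795 units, with ratios of -0.38 and -0.21, and over all 4 of its probe sets these spanned -0.60 to 0.03 and -0.47 to 0.52. Clcn4, another endosomal exchanger, read 702, 1083, 864 and 1261 units, with ratios of 0.62 and 0.54, and its second probe set gave 0.25 and 0.45. Hcn2, a pacemaker channel opened by hyperpolarisation, read 198, 299, 308 and 305 units and was lowest in the control sham pool, and Hcn3 had ratios of -0.30 and -0.59.

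**Figure D3:**
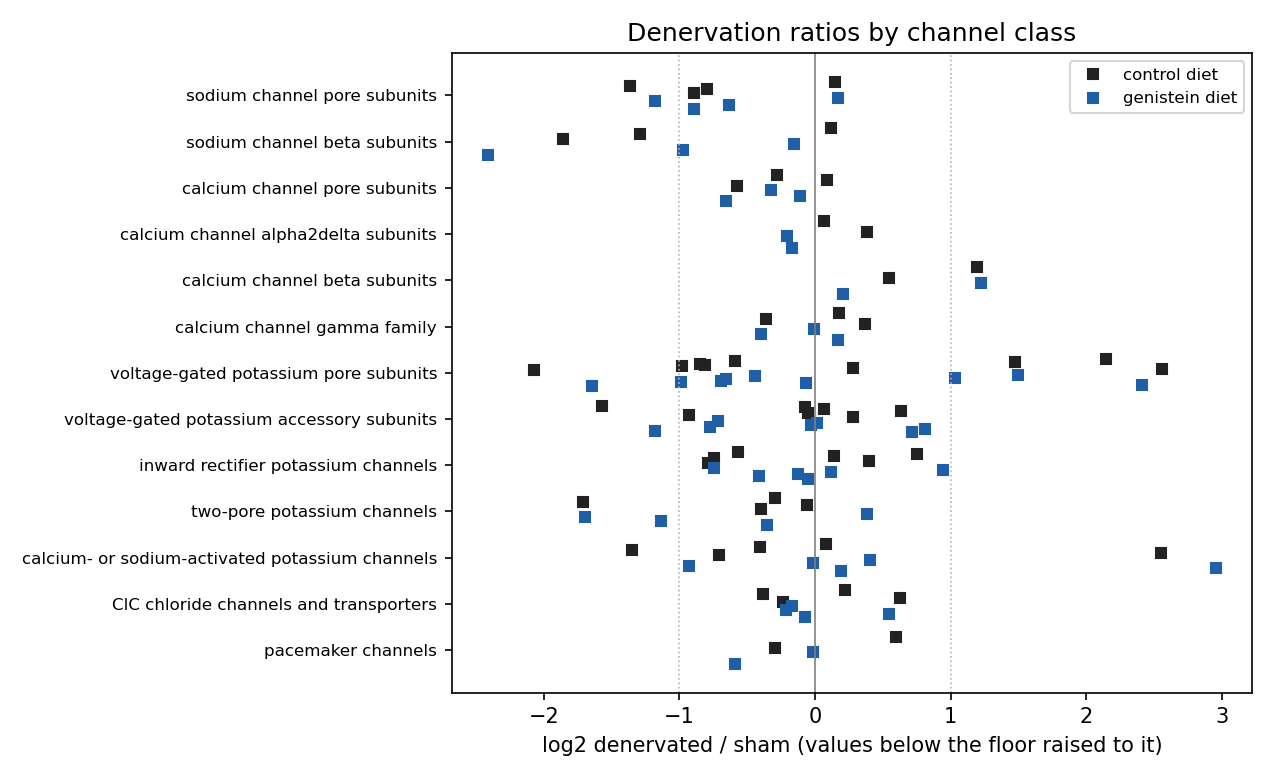
Log2 ratio of denervated over sham signal (x axis) for the same 54 channel genes, in rows by the 13 channel classes, with the control diet in black and the genistein diet in blue and dotted lines at 2-fold. Ratios above 2-fold stand in the calcium channel beta, voltage-gated potassium pore and calcium-activated rows, and ratios below it in the sodium channel, voltage-gated potassium and tandem-pore rows, and Kcnn1.

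Start regions are shown for the channel genes with the highest ratios in both diets (Kcnq5 and Kcnn3) and for the gene with the lowest genistein ratio (Scn4b), because the myogenic factors that respond to nerve loss bind E-boxes. They are 300 bases each, 250 before to 50 after the gene's start in RefSeq (GRCr8), 5′ to 3′ on the gene's strand, at chr9:31891232-31891531 on the minus strand for Kcnq5, chr2:177234090-177234389 on the plus strand for Kcnn3 and chr8:54343623-54343922 on the plus strand for Scn4b. Capitals mark CANNTG, the general E-box, searched on both strands.
Kcnq5: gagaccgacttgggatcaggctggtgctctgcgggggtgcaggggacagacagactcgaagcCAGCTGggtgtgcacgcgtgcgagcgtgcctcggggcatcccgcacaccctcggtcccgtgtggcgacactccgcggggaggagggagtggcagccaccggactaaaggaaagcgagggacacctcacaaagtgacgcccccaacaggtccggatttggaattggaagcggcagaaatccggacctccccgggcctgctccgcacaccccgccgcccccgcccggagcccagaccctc
Kcnn3: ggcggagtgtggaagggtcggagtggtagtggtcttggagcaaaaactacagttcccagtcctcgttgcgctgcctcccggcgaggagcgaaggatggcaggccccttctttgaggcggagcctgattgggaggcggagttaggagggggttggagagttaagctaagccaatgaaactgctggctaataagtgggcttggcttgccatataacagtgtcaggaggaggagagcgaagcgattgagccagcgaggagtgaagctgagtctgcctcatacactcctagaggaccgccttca
Scn4b: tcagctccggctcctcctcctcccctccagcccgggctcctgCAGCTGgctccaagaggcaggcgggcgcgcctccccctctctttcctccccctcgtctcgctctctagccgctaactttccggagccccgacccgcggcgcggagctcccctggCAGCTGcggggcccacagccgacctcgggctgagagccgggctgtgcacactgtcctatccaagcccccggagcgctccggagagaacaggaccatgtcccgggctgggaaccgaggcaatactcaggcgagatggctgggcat

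Kcnq5 had 1 CANNTG match, which was also CAGCTG, the form bound by myogenic factors and a subset of CANNTG. Kcnn3 had 0 matches and Scn4b 2, both CAGCTG. Of all 33469 such windows in the table, 72.1% held CANNTG and 15.1% CAGCTG, and 3.84% held the core of the MEF2 site. Of 96 windows of 85 channel genes that matched the table, 70.8% held CANNTG, 20.8% CAGCTG and 2.08% the MEF2 core. Genes past 2-fold in both diets had 9 windows, those of Kcna2, Kcnc4, Kcnn3, Kcnq5, Kcnk2, Kcns3 and Scn4b. CANNTG was in 2 of 4 windows of the higher genes and 3 of 5 of the lower ones. CAGCTG was in 1 of 4 and 2 of 5, and the MEF2 core in 0 of the 9. Counts this small cannot relate matches to the direction of the ratio. A match of letters is not a binding site, and its absence covers only this window.

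Diet differences among channel genes were few. In sham muscle 1 of 60 measured channel genes passed 2-fold between diets, where 0.61% of all genes did (0.324% higher and 0.287% lower on genistein), and in denervated muscle 1 of 54, where 1.15% of all genes did (1.02% higher and 0.124% lower). Kcne2, a single-span potassium channel subunit, read 74.5, 123, 169 and 98.9 units and was at least 2.14-fold higher on genistein in sham muscle. All of these signals were close to the floor, and under spike-in scaling it missed 2-fold. Kcnab1 was 2.08-fold higher (1.06) on genistein in denervated muscle, at 299 against 143 units, and its dimmer probe set gave 0.33. Under median scaling and quantile normalization it missed 2-fold.

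The next largest diet ratios in denervated muscle were those of Kcnj8 (0.82) and Kcne4 (0.80), both higher on genistein, against 0.08 and -0.06 in sham muscle. The fibroblast markers, 6 of 6 above the floor, summed to 22092 units in the control denervated and 37309 in the genistein denervated pool, the 7 leukocyte markers to 4141 and 6229, and the 6 adipocyte markers, of which Lep was below the floor, to 3949 and 6401. The vascular sums given above were also higher in the genistein denervated pool than in the control denervated pool, and the part of these cells in the values of Kcnab1, Kcnj8 and Kcne4 was not tested. Among the 9 genes past 2-fold in both diets after denervation, the diet ratio in denervated muscle ran from -0.65 for Kcna2 to 0.43 for Kcnk2, with Scn4b at -0.49, Kcnq5 at -0.20 and Kcnn3 at 0.07. These diet ratios share arrays with the denervation ratios.

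**Figure D4:**
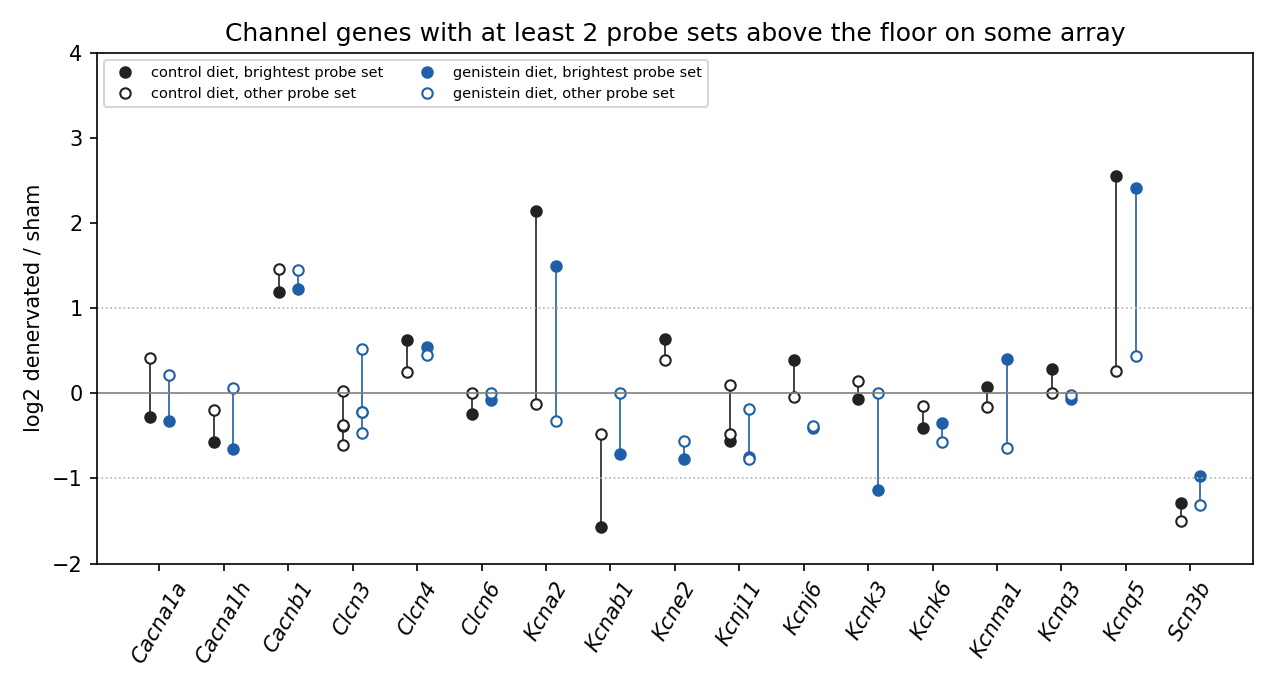
Log2 ratio of denervated over sham signal (y axis) of every probe set above the floor on at least 1 array, for the 17 channel genes with more than 1 such probe set; filled points are the brightest probe set, open points the others, black the control and blue the genistein diet. Probe sets of Cacnb1 and Scn3b lie close together, while those of Kcna2, Kcnq5 and Kcnab1 are far apart.

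Proteins that anchor or regulate the channels were described from a list of 30 genes, of which 23 were on the array and 20 above the floor. After denervation 0 of them passed 2-fold upward in both diets (3.59% of all genes did) and 4 did so downward (4.93% of all genes). These were Ank3, ankyrin-G, which anchors sodium channels (-1.86 and -1.90), Jph2, junctophilin 2, which holds the tubule to the sarcoplasmic reticulum (-1.73 and -2.14), Cav3, caveolin 3 of the fibre surface (-1.75 and -1.68), and Rrad, a small GTPase that inhibits calcium channels (-1.91 and -1.26). Ryr1, the calcium release channel, had ratios of 0.72 and 0.58, and Stac3, which couples it to the calcium channel, -0.10 and -0.31. Abcc9, the sulphonylurea receptor that pairs with Kir6 pores in muscle, had ratios of -0.31 and -0.42. The median over the list was -0.33 (control diet) and -0.31 (genistein diet), against -0.003 and 0.02 for all genes. The list medians were not recomputed under spike-in scaling, which moves the medians of all genes to 0.37 and 0.48.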

How the data were processed

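Expression in rat soleus was measured on 4 Affymetrix arrays, 1 per group, each a pool of 8 animals. For each array the authors deposited linear signal intensities, 1 for every probe set. GCOS 1.1 is named in the submitters' processing notes; scaling target and detection calls are not given in the sources used here. After that scaling, the mean intensity after trimming 2% of probe sets at each end was 500.2 on every array, so the signals were used as deposited.

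The platform annotation gave 20826 of 31042 non-control probe sets 1 gene symbol and 436 several; only the former were named. The gene identifiers of all 192 channel probe sets matched RefSeq GRCr8, with 0 symbols changed. Each gene was represented by its brightest probe set (mean of log2 signals over the arrays). Signals below the 40th percentile (78.9 units) were raised to it; a gene was measured in a comparison when at least 1 array exceeded it, and ratios with 1 side below it are bounds. Genes were counted past 2-fold. Named genes were those past 2-fold in any comparison, 21 fixed muscle channel genes and the 3 brightest members, 27 in all; other members are cited as examples of their class, chosen after their values were seen. The members and lists were chosen with earlier results of these data known. Groups came from titles. Alternatives were 3 scalings, 2 floors and the mean of floored probe-set values. Calculations used Python 3.11.15, numpy 2.4.6 and pandas 2.3.3, tested on simulated data.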

Additional observations from a re-analysis of the deposited data

Results flagged for a closer look

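Kcne2, a single-span potassium channel subunit, had denervation ratios of opposite sign in the diets, 0.64 (log2, control diet) and -0.77 (genistein diet), each larger than the SD between probe sets of a gene. The control value is a bound, since the control sham signal of 74.5 units was below the floor. A second Kcne2 probe set gave 0.39 and -0.56, and the probe set used carries the array maker's suffix for possible cross-hybridisation. Only the 27 named genes were screened, and Kcne2 was named for its diet ratio in sham muscle. Its denervation ratios share those sham arrays, so their opposite signs are not separate from that diet ratio. Kcnj6, which was not screened, also met the rule, with 0.40 and a bound of -0.41. A second Kcnj6 probe set gave bounds of -0.04 and -0.38. The difference between the diets was not tested.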

How the results depend on the processing

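No paired analysis was possible because each group is 1 pooled array, and for the same reason no replicate could be left out. Of the 9 genes past 2-fold in both diets, 3 (Cacnb1, Kcnn3 and Scn4b) stayed past it in both under all 6 alternatives; 2 were higher in both diets with the mean of probe sets in place of 5, and 2 lower with the floor at the 60th percentile and 8 at the 20th in place of 4. On the control diet the count of higher genes (5) became 12 with the 20th percentile floor and 3 with the mean of probe sets, and that of lower genes (7) became 4 under spike-in scaling, 3 with the 60th and 15 with the 20th percentile floor. On genistein the higher count (5) became 8 under spike-in scaling, 12 with the 20th percentile floor and 2 with the mean of probe sets, and the lower count (6) became 3, 2 and 15 under spike-in scaling, the 60th and the 20th percentile floor. A lower floor lets in more dim genes and a higher one removes them; for the other settings the cause was not tested. The median channel ratio after denervation on the control diet (-0.23) was 0.01 under both median scaling (0.0087) and quantile normalization (0.0077), and 0.12 under spike-in scaling, and on genistein (-0.16) 0.26 under spike-in scaling. The median diet ratio in denervated muscle (-0.0052) was 0.0518 under spike-in scaling and 0.0063 with the 20th percentile floor. The single gene past 2-fold by diet in sham muscle became 0 under spike-in scaling, with the 60th percentile floor and with the mean of probe sets, and 12 with the 20th percentile floor; in denervated muscle it became 0 under median scaling, quantile normalization, the 60th percentile floor and the mean of probe sets, and 9 with the 20th percentile floor. The other 43 recomputed summary values kept their sign and stayed within 1.5 times the main count or within the SD between probe sets. Signals near the floor limit what can be said of the 35 channel genes above it on some but not all arrays.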

Other observations

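Ion channels of other families were described from a list of 38 genes, of which 37 were on the array and 30 above the floor on at least 1. Ano1, a calcium-activated chloride channel, read 390 and 2547 units in sham and denervated muscle on the control diet and 411 and 2022 on genistein, with log2 ratios of 2.71 and 2.30, the only gene of the list at least 2-fold higher in both diets, where 3.59% of all genes were. Clic5, a chloride intracellular channel protein, was the only one at least 2-fold lower in both (-1.35 and -1.26), where 4.93% of all genes were; 1 gene each way among about 30 is near those shares. Ano5, a muscle relative of Ano1 linked to membrane repair, had ratios of -0.61 and -1.17. The mitochondrial outer membrane channels Vdac1 (-0.74 and -0.97), Vdac2 (-0.51 and -0.76) and Vdac3 (-0.42 and -0.62) were all below 0 as deposited. Tmem38a, the potassium channel TRIC-A of the sarcoplasmic reticulum, had ratios of -0.43 and -0.72, and its relative Tmem38b 0.38 and 0.59. The mechanosensitive channel Piezo1 had ratios of 0.57 and 0.17, and Piezo2 was below the floor. The median over the list was -0.17 (control diet, 29 genes) and -0.20 (genistein diet, 30 genes), against -0.003 and 0.02 for all genes. These list medians were likewise not recomputed under spike-in scaling.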
